A study of Mus musculus with 6 samples.

Results

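Major histocompatibility complex (MHC) class I genes were followed in single mouse CD4+ T cells that were heterozygous for a Tgfbr1 mutation or wild type (WT). The 9 genes were taken by symbol from a fixed list of classical and Qa class I genes, out of 32285 genes in the matrices. They are the classical heavy chains H2-K1 and H2-D1, the shared light chain B2m, the Qa-region genes H2-Q2, H2-Q4, H2-Q6 and H2-Q7, and the T-region genes H2-T22 and H2-T23. The list was drawn up with the genotype difference of these same libraries known. All genotype values of the 9 genes are therefore given as a description, with no test.

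Mutant donors carried the M318R allele knocked into 1 copy of Tgfbr1, the type I receptor for TGF-beta, in every cell type. Both mutant and WT donors were RAG-/- and carried the OT-II transgene, a CD4 T cell receptor for an ovalbumin peptide. Their CD4+ cells were transferred into CD45.1 WT hosts that drank 1.5% ovalbumin for 7 days. On day 8 the Peyer's patches, follicles of lymphoid tissue in the wall of the gut, were taken and donor cells sorted by a CD45.2+CD45.1-CD4+CD8-TCRβ+ gate. There were 2 libraries of each genotype, called mutant 1, mutant 2, WT 1 and WT 2. The labels do not say how many animals make up a library. Each library held donor cells of both sexes, so it drew on more than 1 donor. The p-values measure spread between libraries, which may be technical. Another 2 WT samples, labelled as hashtag libraries, were not analysed here.

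Class I molecules carry peptides from inside the cell to its surface, where CD8 T cells and natural killer cells read them. Each heavy chain pairs with beta-2 microglobulin, the product of B2m. H2-K1 and H2-D1 are the classical, highly variable heavy chains. H2-Q6 and H2-Q7 belong to the genes for Qa-2, which is found on T cells and is held at the surface by a lipid anchor. H2-T23 encodes Qa-1, which shows leader peptides of other class I chains to the CD94-NKG2 receptors of natural killer cells. H2-T22 encodes a molecule that a subset of gamma-delta T cells recognises without peptide. Interferon and NF-kappaB raise transcription of many class I genes through elements just upstream of the start site.

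All 9 genes passed the filter on low counts. Of the members, 8 lie in the H2 locus on chromosome 17 and B2m lies on chromosome 2. Coordinates are those of GENCODE's annotation of mouse build GRCm38, which is mm10. H2-Q2 (ENSMUSG00000091705) spans 35342242 to 35346762, H2-Q6 (ENSMUSG00000073409) 35424850 to 35430055 and H2-Q7 (ENSMUSG00000060550) 35439155 to 35443773, all on the plus strand. Each of the 9 is annotated as protein coding.

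The promoters of the 3 genes that differed most between genotypes are shown with that of H2-K1, as RefSeq gives them for GRCm38.p6. Each runs from 250 bases before to 50 bases after the annotated start. H2-Q2 is at chr17:35342057-35342356 on the plus strand, H2-Q6 at chr17:35424600-35424899 on the plus strand, H2-Q7 at chr17:35438905-35439204 on the plus strand and H2-K1 at chr17:34000298-34000597 on the minus strand. Capitals mark the core of an NF-kappaB site, GGGATTCCC, and an interferon element, TTTCACTTC.
H2-Q2 promoter: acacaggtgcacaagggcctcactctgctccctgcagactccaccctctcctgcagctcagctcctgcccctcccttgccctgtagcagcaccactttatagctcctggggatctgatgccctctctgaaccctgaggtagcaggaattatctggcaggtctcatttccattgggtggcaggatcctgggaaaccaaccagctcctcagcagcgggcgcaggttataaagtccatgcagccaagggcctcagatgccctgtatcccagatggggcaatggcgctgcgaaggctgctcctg
H2-Q6 promoter: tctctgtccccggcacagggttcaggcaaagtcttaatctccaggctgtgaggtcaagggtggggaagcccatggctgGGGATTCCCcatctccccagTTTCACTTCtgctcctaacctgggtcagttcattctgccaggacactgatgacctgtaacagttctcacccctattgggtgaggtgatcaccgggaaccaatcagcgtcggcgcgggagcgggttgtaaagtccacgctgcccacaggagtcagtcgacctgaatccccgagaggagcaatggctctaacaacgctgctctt
H2-Q7 promoter: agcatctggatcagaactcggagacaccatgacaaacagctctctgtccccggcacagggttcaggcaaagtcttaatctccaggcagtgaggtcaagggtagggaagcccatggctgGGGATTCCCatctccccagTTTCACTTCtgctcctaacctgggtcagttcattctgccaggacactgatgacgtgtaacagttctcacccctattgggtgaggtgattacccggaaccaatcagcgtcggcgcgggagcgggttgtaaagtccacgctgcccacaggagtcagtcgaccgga
H2-K1 promoter: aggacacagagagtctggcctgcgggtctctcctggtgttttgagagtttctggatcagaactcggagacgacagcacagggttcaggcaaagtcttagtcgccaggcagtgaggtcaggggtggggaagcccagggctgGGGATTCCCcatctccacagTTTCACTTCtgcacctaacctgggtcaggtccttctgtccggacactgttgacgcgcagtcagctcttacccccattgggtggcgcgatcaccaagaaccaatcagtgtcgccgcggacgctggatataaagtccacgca

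Both strands of 32851 mouse promoters of this length were searched. GGGATTCCC was in 0.353% of them, and among the 9 genes in H2-K1, H2-D1, H2-Q6 and H2-Q7. TTTCACTTC was in 0.505%, and among the 9 genes in those 4 and H2-Q4. The CCAAT box, CCAAT, was in 37.4% and in all 9. The capitals of the NF-kappaB and interferon strings do not overlap. Neither string was found in the H2-Q2 window, which says only that these letters are not there. Only exact letters were searched, so near variants were not counted. For example, H2-Q4 holds a near variant of the NF-kappaB string and H2-T22 one of the interferon string. The other members, B2m among them, were not searched for such variants and may hold them too. The promoters of H2-Q6 and H2-Q7 were 98.1% identical over 260 aligned bases, and those of H2-K1 and H2-D1 91.2% identical over 239. H2-Q2 was 80.0% identical to H2-Q4, 75.3% to H2-K1, 74.9% to H2-Q7 and 72.2% to H2-Q6. Identity counts only bases aligned without a gap, which keeps it high for any pair. B2m, on another chromosome, was between 66.8% and 76.3% identical to the other members, so values in that range show no closer likeness.

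Counts are unique molecular identifiers (UMIs), each standing for 1 captured RNA molecule, read from the 3′ end of the transcript. Kept T cells numbered 869 and 176 in the mutant libraries and 1266 and 621 in the WT libraries, with 7605383, 1617621, 11854581 and 5520682 UMIs. Mutant 2 was therefore the shallowest library. Median UMIs per kept cell were between 8535 and 9028. T cell marker genes summed to 15030 and 14990 CPM in mutant and 14970 and 15230 CPM in WT libraries. Across all genes, 116 of 10624 passed edgeR's quasi-likelihood test between genotypes (adjusted p under 0.05), or 1.09%, of which 66 rose and 50 fell. This count was 210 without mutant 2, 38 without WT 1, 209 without WT 2, 44 in DESeq2 and 0 when all barcodes were kept. The mutation is a single-codon change that 3′ counts cannot see, so Tgfbr1 counts do not check the genotype labels. In sums over many cells, fewer cells with a transcript and less of it per cell cannot be told apart. A total of 23 barcodes occurred in more than 1 library, and 14 kept cells carried one. The WT matrices hold antibody tags and the mutant matrices hold none, so tag handling and genotype cannot be told apart.

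H2-K1, H2-D1 and B2m overlapped between the genotypes. Levels are given in TMM-scaled CPM (a gene's UMIs scaled to a common library total), a scale on which different genes are not compared here. H2-K1 had 1924 and 1337 CPM in mutant libraries, against 1882 and 1571 CPM in WT libraries. H2-D1 had 1527 and 1230 CPM in mutant libraries, against 1558 and 1318 CPM in WT libraries. B2m, the light chain, had 1585 and 1557 CPM in mutant libraries, against 1601 and 1303 CPM in WT libraries. The log2 fold changes, mutant over WT, were -0.08 ± 0.18 for H2-K1, -0.06 ± 0.16 for H2-D1 and 0.11 ± 0.16 for B2m (SE). For H2-K1, leaving out 1 library moved this value between -0.38 and 0.16, for H2-D1 between -0.23 and 0.09, and for B2m between -0.02 and 0.27, so their direction rests on single libraries.

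H2-Q2 was lower in the mutant cells. It had 29.6 and 23.3 CPM in mutant libraries, from 221 and 39 UMIs, against 43.8 and 48.3 CPM in WT libraries, from 509 and 265 UMIs. Both mutant libraries lay below both WT libraries, and the means were 26.4 ± 4.49 CPM in mutant and 46.0 ± 3.15 CPM in WT libraries (SD, n = 2 each). The log2 fold change was -0.73 ± 0.16 (SE), a ratio of 0.604. It was between -0.98 and -0.62 with any 1 library left out. H2-Q4, which lies next to H2-Q2 among the genes listed here, had 171 and 159 CPM in mutant libraries, against 193 and 175 CPM in WT libraries. Its mutant libraries were also the lower pair, with a log2 fold change of -0.15 ± 0.14 (SE).

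H2-Q6 and H2-Q7, the Qa-2 genes, were higher in the mutant cells. H2-Q7 had 408 and 355 CPM in mutant libraries, against 295 and 239 CPM in WT libraries. Its means were 382 ± 37.2 CPM in mutant and 267 ± 39.3 CPM in WT libraries (SD, n = 2 each), and the log2 fold change was 0.52 ± 0.15 (SE), a ratio of 1.43. H2-Q6 had 75.4 and 82.3 CPM in mutant libraries, against 58.2 and 46.3 CPM in WT libraries, a log2 fold change of 0.57 ± 0.15 (SE) and a ratio of 1.48. For both genes every mutant library was above every WT library. With any 1 library left out, the log2 fold change lay between 0.38 and 0.67 for H2-Q7 and between 0.43 and 0.75 for H2-Q6.

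H2-T22 and H2-T23 overlapped between genotypes. H2-T23, which encodes Qa-1, had 227 and 177 CPM in mutant libraries, against 245 and 215 CPM in WT libraries, a log2 fold change of -0.17 ± 0.15 (SE). H2-T22 had 141 and 137 CPM in mutant libraries, against 158 and 126 CPM in WT libraries, a log2 fold change of -0.03 ± 0.15 (SE). Over the 9 genes, the genotypes did not overlap for H2-Q2, H2-Q4, H2-Q6 and H2-Q7, where 45.1% of all tested genes did not overlap. H2-Q2 was the 1 member past the threshold over all genes. The list was chosen on this contrast, so nothing is read from either count.

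**Figure D1:**
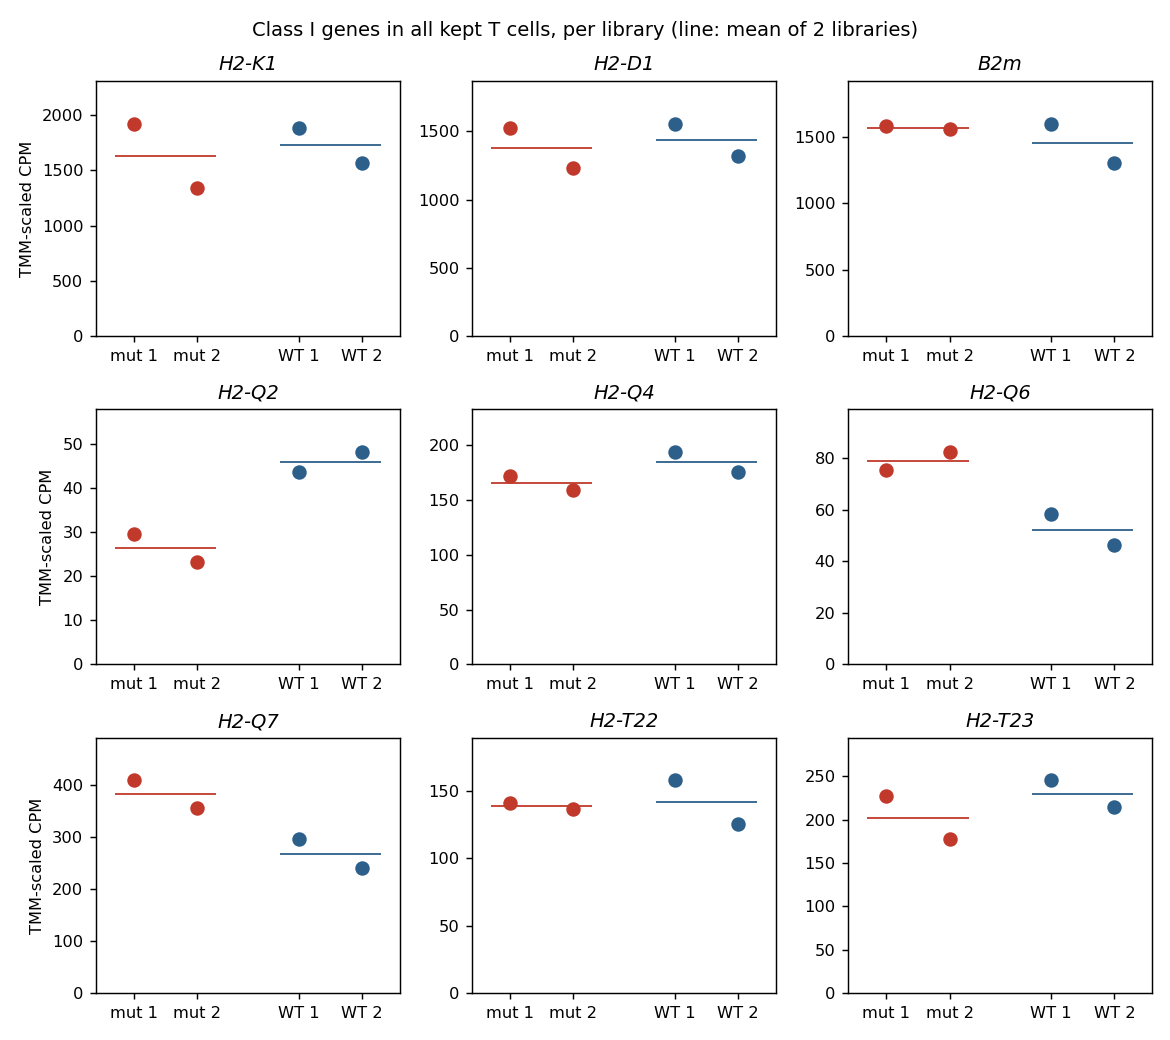
TMM-scaled CPM of each class I gene (vertical axes, from 0) in the mutant (red) and WT (blue) libraries, each point 1 library and each line the mean of 2. The mutant points lie below the WT points for H2-Q2 and H2-Q4, above them for H2-Q6 and H2-Q7, and overlap them for the other 5 genes.

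The opposite directions of H2-Q2 and H2-Q7 can be read within a library, without any scaling between libraries. H2-Q7 gave 13.8 and 15.3 UMIs for each H2-Q2 UMI in mutant libraries, against 6.73 and 4.96 in WT libraries. H2-Q6 gave 2.55 and 3.54 UMIs per H2-Q2 UMI in mutant libraries, against 1.33 and 0.959 in WT libraries. Set against H2-D1 in place of H2-Q2, H2-Q7 stood at 0.267 and 0.289 UMIs per H2-D1 UMI in mutant libraries and 0.189 and 0.182 in WT libraries. H2-Q2 stood at 0.0194 and 0.0189 UMIs per H2-D1 UMI in mutant libraries, against 0.0281 and 0.0366 in WT libraries.

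The share of cells with at least 1 UMI moved the same way. At a common depth of 3000 UMIs per cell, H2-Q7 was seen in 62.5% and 59.5% of mutant cells, against 49.8% and 43.2% of WT cells. Without thinning these shares were 86.9% and 84.1% of mutant cells, against 76.1% and 67.5% of WT cells. H2-Q6 was seen at the common depth in 19.3% and 21.1% of mutant cells, against 14.4% and 11.2% of WT cells. H2-Q2 was seen in 8.22% and 7.41% of mutant cells, against 11.4% and 12.7% of WT cells. Unthinned, the shares were 39.0% and 41.5% of mutant against 32.1% and 23.7% of WT cells for H2-Q6, and 17.3% and 16.5% of mutant against 24.1% and 26.9% of WT cells for H2-Q2. Thinning left out 34 and 21 mutant cells and 13 and 18 WT cells. These data hold no cell type that should lack class I transcripts, so the part of free RNA in these shares was not measured. The classical genes were near saturation, with H2-K1 seen unthinned in 99.9% and 97.7% of mutant and 99.9% and 99.2% of WT cells.

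T cell states were rebuilt by clustering with H2 genes and B2m left out of the genes that drove it. Of 11 clusters of T cells, 4 had at least 20 cells in every library and were compared between genotypes. Clusters 2 and 4 carried T follicular helper (Tfh) markers, cells that help B cells: cluster 2 was led by Ascl2 and Id1, and cluster 4 by Sostdc1, Tox2 and also Il4 and Bcl6. Cluster 0 was led by Id2 and Gpr183 and cluster 1 by Egr3, Lpar3 and Gpr183, and neither took a cell type's name. The mix of states differed: cluster 2 made up 28.3% and 16.5% of mutant cells, against 6.95% and 13.2% of WT cells. The naive- or memory-like cluster 3 made up 4.72% and 9.66% of mutant cells, against 20.9% and 14.7% of WT cells. Cluster 8, whose cells had a median of 3403 UMIs and were led by Gm42418 and Lars2, made up 6.90% and 15.9% of mutant cells, against 1.19% and 3.38% of WT cells. Over all kept cells Gm42418 had 11478 and 17045 CPM in mutant libraries, against 6407 and 9576 CPM in WT libraries, without passing the test. The part of such cells in the values over all kept cells was not tested, and the 4 clusters compared next hold none of clusters 3 and 8.

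Within each of the 4 clusters the fitted log2 fold change, mutant over WT, kept its sign for H2-Q2, H2-Q6 and H2-Q7. The clusters split the same libraries on the contrast that chose the list, so these shared signs are only described. H2-Q2 was at -0.74 ± 0.24 in cluster 0, -0.81 ± 0.30 in cluster 1, -0.76 ± 0.31 in cluster 2 and -0.71 ± 0.21 in cluster 4 (SE). In cluster 1 its libraries overlapped, at 24.7 and 41.5 CPM in mutant and 60.4 and 36.8 CPM in WT cells. In the other 3 clusters both mutant libraries were below both WT libraries, for example 64.6 and 43.8 CPM in mutant against 95.1 and 103 CPM in WT cells of cluster 4.

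For H2-Q7 the same values were 0.51 ± 0.16 in cluster 0, 0.72 ± 0.16 in cluster 1, 0.94 ± 0.18 in cluster 2 and 0.79 ± 0.15 in cluster 4 (SE). Both mutant libraries were above both WT libraries in all 4 clusters. The share of all genes without overlap was not counted within clusters, and over all kept T cells it was 45.1%. Nothing is therefore read from separate libraries within a cluster. In cluster 2 H2-Q7 had 442 and 310 CPM in mutant cells, against 233 and 171 CPM in WT cells. H2-Q6 was at 0.61 ± 0.22, 1.06 ± 0.29, 0.91 ± 0.27 and 0.84 ± 0.21 in clusters 0, 1, 2 and 4 (SE). Its libraries overlapped in cluster 2, at 79.4 and 45.1 CPM in mutant and 47.7 and 24.2 CPM in WT cells, and not in the other 3.

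The other members were closer to 0 within the clusters. B2m was positive in all 4, between 0.24 and 0.29. H2-Q4 was negative in all 4, between -0.24 and -0.06. H2-K1 lay between 0.01 and 0.11, H2-D1 between -0.01 and 0.15, H2-T22 between -0.23 and 0.12 and H2-T23 between -0.37 and 0.10. Several of these members also had libraries that did not overlap. Mutant libraries were the higher pair for B2m in clusters 1, 2 and 4, H2-D1 in cluster 4 and H2-T23 in cluster 0. They were the lower pair for H2-Q4 in clusters 0 and 4, H2-T22 in cluster 1 and H2-T23 in cluster 4. Over all genes tested, 0.094% passed the threshold in cluster 0, 0.0129% in cluster 1, 0.353% in cluster 2 and 0.274% in cluster 4. Leaving out 1 library moved the number of genes called in a cluster between 1 and 146. Among the members H2-Q7 passed in clusters 2 and 4 and H2-Q6 in cluster 4, from which nothing is read because the same contrast chose the list.

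**Figure D2:**
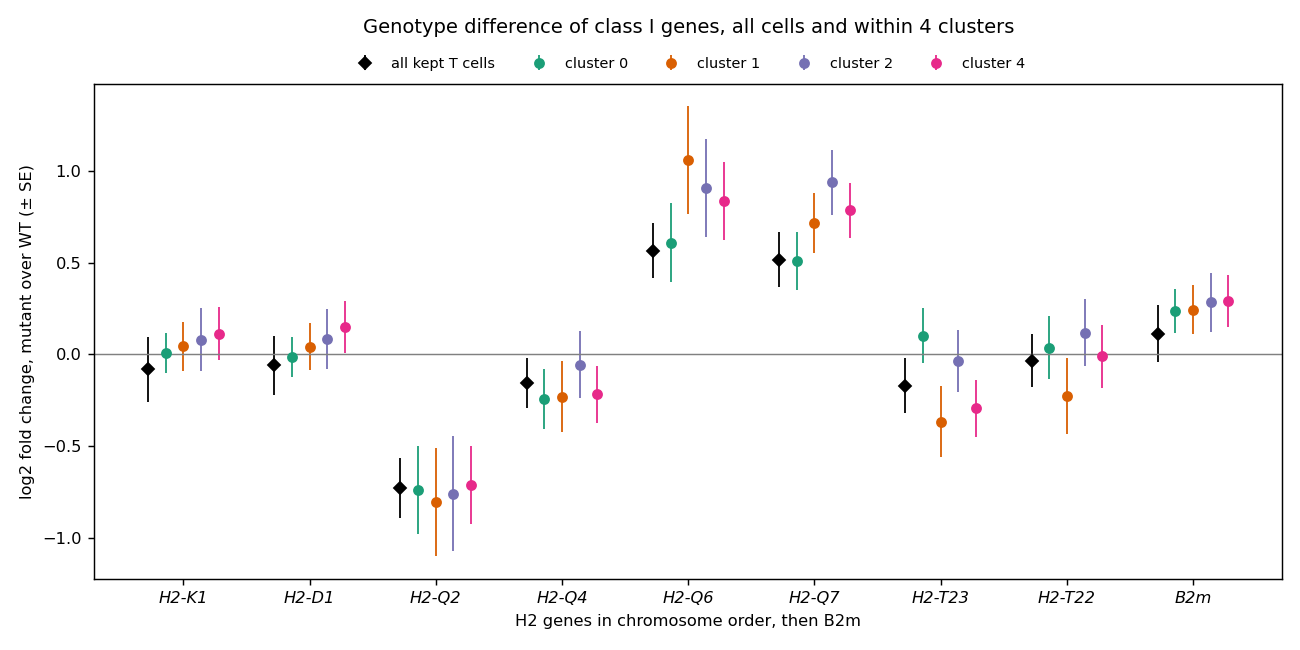
Log2 fold change of each class I gene, mutant over WT (vertical axis, bars ± SE), in all kept T cells (black diamonds) and within clusters 0, 1, 2 and 4 (coloured points), with the H2 genes in chromosome order and B2m last. H2-Q2 lies below 0 and H2-Q6 and H2-Q7 lie above 0 in all 5 sets of cells.

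Levels also varied between states, given as CPM without TMM scaling in clusters with at least 20 cells of a library. H2-Q2 was highest in the Tfh-like cluster 4, with 62.0 and 43.5 CPM in mutant cells and 94.7 and 103 CPM in WT cells. In WT cells it stood at 62.8 ± 0.071 CPM in cluster 0, 54.6 ± 13.8 in the cytotoxic-like cluster 7, 48.1 ± 16.4 in cluster 1, 34.9 ± 1.69 in cluster 2, 20.1 ± 1.47 in the naive- or memory-like cluster 3 and 6.69 ± 0.863 in cluster 5 (SD, n = 2 each). Cluster 5 was led by Myc, Nr4a1 and Srm. Neighbours between cluster 0 and cluster 2 in this order do not differ beyond their spread. In cluster 10, which mixed Foxp3 with Gzmb and Ccl5, 1 UMI of H2-Q2 was counted in 57 WT 1 cells. Between states of WT cells H2-Q2 thus spanned 6.69 to 99.0 CPM, a wider span than any genotype difference within a compared cluster.

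H2-Q7 was ordered otherwise. Among clusters with both WT libraries it was highest in cluster 7, at 428 ± 183 CPM, where the libraries lay at 557 and 299 CPM. It followed at 312 ± 25.2 in cluster 3, 293 ± 3.18 in cluster 5, 237 ± 16.1 in cluster 4, 229 ± 37.8 in cluster 0, 210 ± 6.79 in cluster 1 and 200 ± 42.6 in cluster 2 (SD, n = 2 each). Neighbours in this order do not differ beyond their spread, apart from the step between clusters 5 and 4. Mutant 1 cells of cluster 7, 24 in number, had 640 CPM. In mutant cells H2-Q7 had means of 388 ± 60.6 CPM in cluster 4, 367 ± 79.0 in cluster 2, 351 ± 32.8 in cluster 1 and 341 ± 81.9 in cluster 0 (SD, n = 2 each), which do not differ beyond their spread.

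H2-Q6 in WT cells ranged between 26.1 ± 7.83 CPM in cluster 1 and 74.1 ± 49.8 CPM in cluster 7 (SD, n = 2 each). H2-Q4 was highest in cluster 4 among the 4 compared clusters, at 202 ± 28.4 CPM in mutant and 250 ± 15.9 CPM in WT cells (SD, n = 2 each). There H2-T23 had 221 ± 14.4 CPM in mutant and 283 ± 21.2 CPM in WT cells, close to its 246 ± 9.55 CPM in mutant and 258 ± 6.29 CPM in WT cells of cluster 2 (SD, n = 2 each). Enough cells of the interferon-signature cluster 9, led by Ifit1, Ifit3 and Irf7, came from WT 1 alone. In it H2-T23 had 386 CPM, H2-T22 236 CPM, B2m 2130 CPM, H2-D1 1934 CPM and H2-K1 2197 CPM. Over all WT 1 cells these genes had 245, 158, 1601, 1558 and 1882 TMM-scaled CPM. H2-Q2, H2-Q6 and H2-Q7 had 50.2, 57.8 and 354 CPM in that cluster, against 43.8, 58.2 and 295 over all WT 1 cells.

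**Figure D3:**
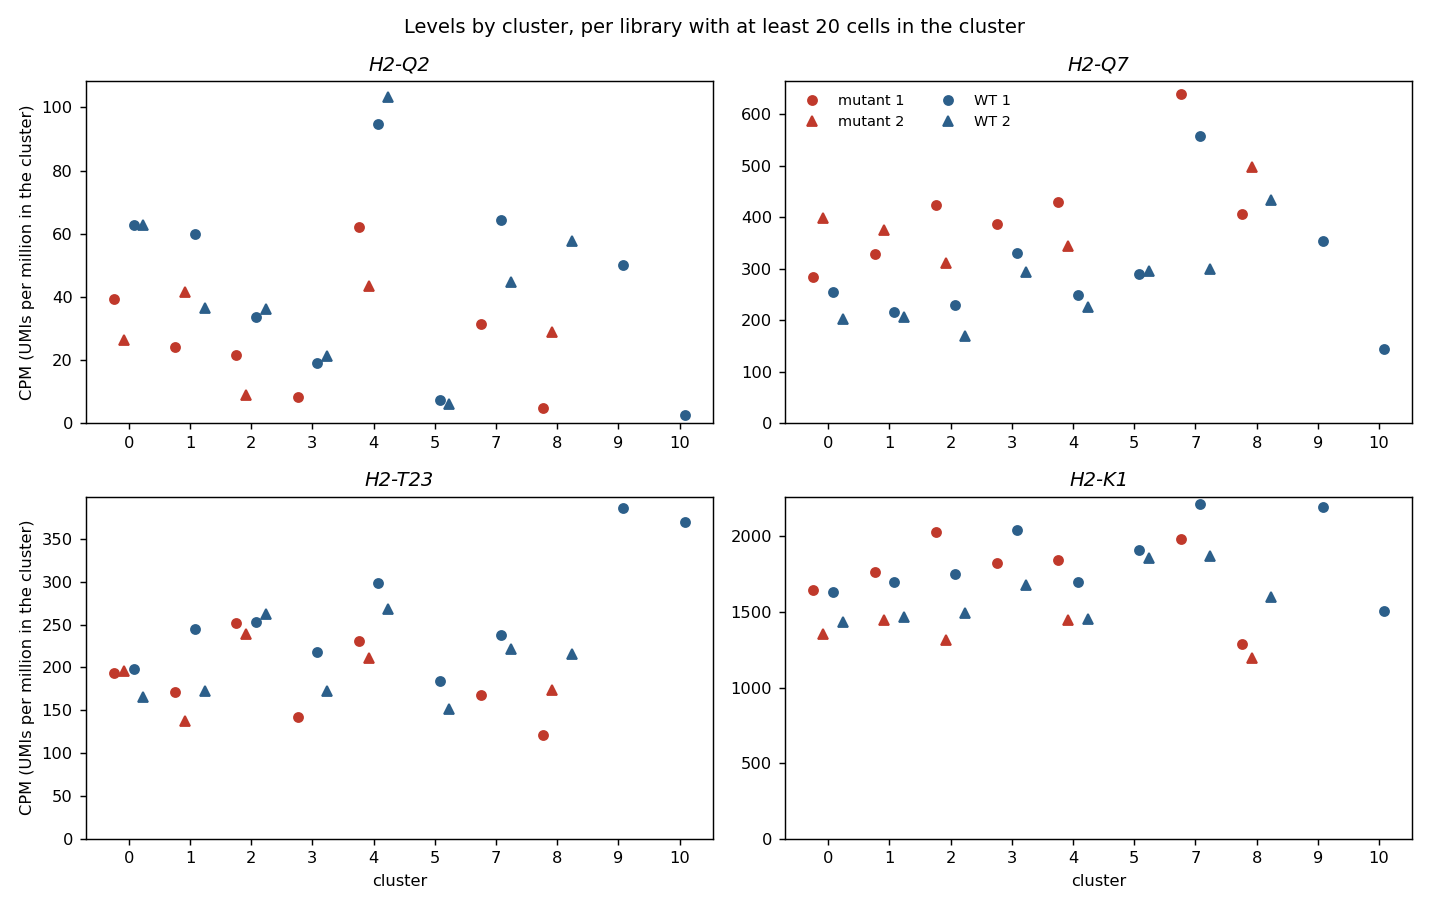
CPM (vertical axes, from 0) of H2-Q2, H2-Q7, H2-T23 and H2-K1 by cluster number (horizontal axes), with a point for each mutant (red) and WT (blue) library that has at least 20 cells there. H2-Q2 peaks in cluster 4 and is near 0 in clusters 5 and 10, H2-Q7 reaches 640 CPM in mutant 1 and 557 CPM in WT 1 cells of cluster 7, and H2-T23 is highest in clusters 9 and 10.

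Members that moved together were sought over 16 sums, 4 clusters in each of 4 libraries. These sums share libraries and depth, and the genotype difference is part of them, so the values are descriptions. H2-Q6 was most like H2-Q7 (Pearson r = 0.814), and B2m was also most like H2-Q7 (r = 0.816). H2-K1 and H2-D1 were each other's nearest gene (r = 0.788). H2-T22 and H2-T23 correlated at 0.846 and H2-Q2 and H2-Q4 at 0.831, whereas H2-Q2 and H2-Q7 correlated at -0.346. Outside the list, the gene most like H2-Q2 was Anp32a (r = 0.861), that most like H2-Q4 was Tle5 (r = 0.919), that most like H2-Q7 was Hnrnpc (r = 0.819), that most like H2-T22 was Gstp3 (r = 0.924) and that most like H2-T23 was Selenow (r = 0.929).

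Order along the chromosome was set beside the differences. From H2-D1 onwards the members stood at -0.06 for H2-D1, -0.73 for H2-Q2, -0.15 for H2-Q4, 0.57 for H2-Q6 and 0.52 for H2-Q7 on the log2 scale. H2-Q10, a class I gene beyond H2-Q7, had 28.7 and 36.4 CPM in mutant libraries, against 20.7 and 25.7 CPM in WT libraries, a log2 fold change of 0.44 ± 0.18 (SE) that did not pass (edgeR, adjusted p = 0.319). Of the 82 other tested genes of the H2 locus, between 33996017 and 37274484 on chromosome 17, none rose and 1 fell, or 1.22%, where 15 had an unadjusted p under 0.05. Over all tested genes 11.9% had an unadjusted p under 0.05 in edgeR and 5.12% in DESeq2. Without mutant 2 the count was 2, without WT 2 it was 3, and DESeq2 called 0. The 1 was Hspa1a, an inducible heat shock gene, with 38.3 and 88.8 CPM in mutant libraries, against 200 and 119 CPM in WT libraries (log2 fold change -1.48 ± 0.28, edgeR adjusted p = 0.0119). How far reads of Hspa1a and its near-identical neighbour Hspa1b were separated was not tested. Hspa1b had 39.5 and 156.8 CPM in mutant libraries, against 258.8 and 151.3 CPM in WT libraries, so its genotypes overlapped. Its log2 fold change of -1.24 ± 0.38 (SE) did not pass (edgeR adjusted p = 0.147). Without mutant 1 the Hspa1a value was -0.87 and did not pass (edgeR adjusted p = 0.081), and without mutant 2, WT 1 and WT 2 it was -2.06, -1.01 and -1.75.

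Among the 25 tested genes below the locus, the 25 above it, the 50 around Tgfbr1 on chromosome 4 and the 50 around B2m, none passed in edgeR or DESeq2. With 1 library left out, up to 2 genes above the locus and up to 2 around Tgfbr1 passed: 2 and 0 without mutant 1, 1 and 1 without mutant 2, 0 and 0 without WT 1, and 2 and 2 without WT 2. Unadjusted p was under 0.05 for 3, 6, 6 and 2 of them in edgeR and for 1, 3, 3 and 0 in DESeq2, beside 11.9% and 5.12% of all tested genes. The median absolute log2 fold change of the H2 locus without the members was 0.184, that around Tgfbr1 was 0.228, and that of all tested genes was 0.18.

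**Figure D4:**
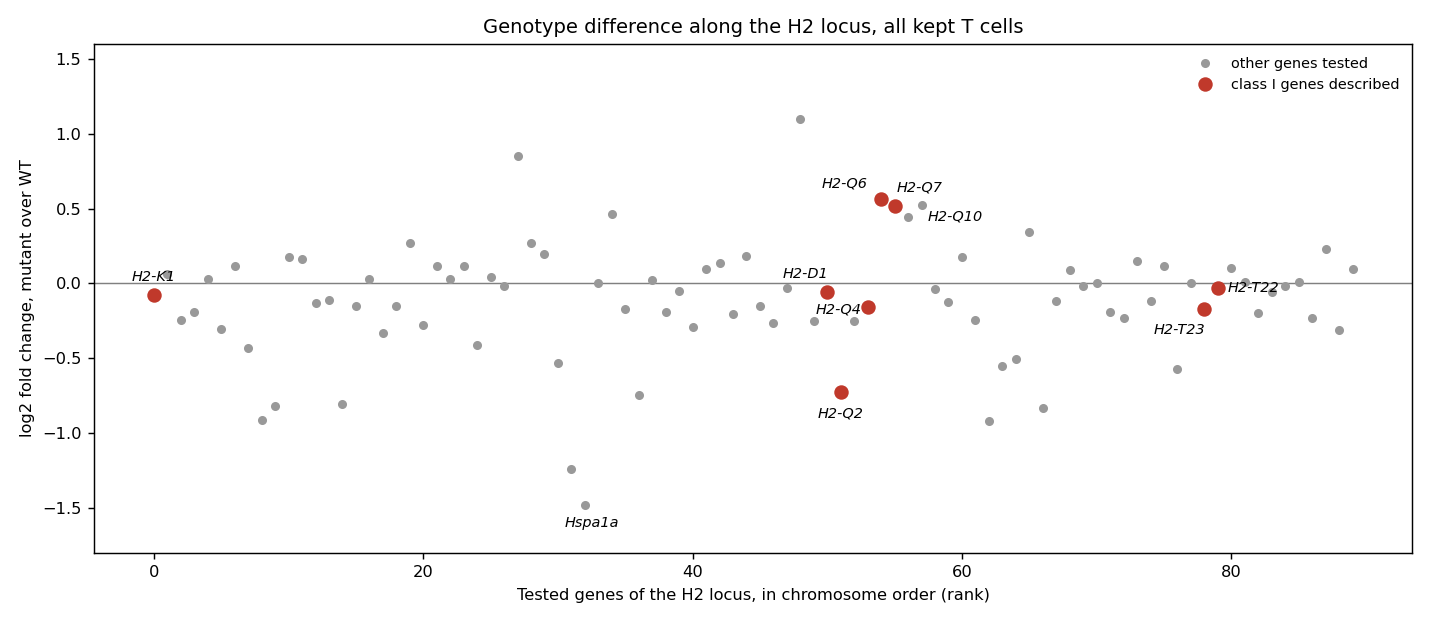
Log2 fold change, mutant over WT (vertical axis), of the 90 tested genes of the H2 locus by rank in chromosome order (horizontal axis), with the 8 class I members in red and other genes in grey. H2-Q2 at -0.73 lies below its neighbours and H2-Q6, H2-Q7 and H2-Q10 lie above 0, while H2-K1, H2-D1, H2-T22 and H2-T23 lie near 0.

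Genes that serve the class I pathway did not pass the test. The peptide-loading list, with the transporter gene Tap1 and the chaperone gene Tapbp, had 17 tested genes, and the proteasome list, with the immunoproteasome subunits Psmb8 and Psmb9, had 11. None of these rose or fell in edgeR or DESeq2, and none had an unadjusted p under 0.05 in either. Tap1 had 111 and 87.0 CPM in mutant libraries, against 93.8 and 86.5 CPM in WT libraries. Of 33 tested regulators of class I transcription and interferon or NF-kappaB signalling, none passed in edgeR or DESeq2, with 10 and 5 at an unadjusted p under 0.05, where over all genes 11.9% and 5.12% had one. Without mutant 1, mutant 2 or WT 2 there was 1 call among them. Among them Nlrc5, the class I transactivator, had 27.7 and 37.6 CPM in mutant libraries, against 27.4 and 23.7 CPM in WT libraries (log2 fold change 0.26 ± 0.18, edgeR adjusted p = 0.595).

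Of 44 tested interferon-stimulated genes, 2 rose and none fell in edgeR, with 22 positive and 22 negative values and a median log2 fold change of -0.00, beside -0.01 over all genes. Iigp1 had 54.4 and 14.9 CPM in mutant libraries, against 10.16 and 8.38 CPM in WT libraries (2.07 ± 0.32, edgeR adjusted p = 0.00236). Gbp3 had 22.8 and 8.35 CPM in mutant libraries, against 7.40 and 8.20 CPM in WT libraries (1.21 ± 0.28, edgeR adjusted p = 0.0498). Both encode interferon-inducible GTPases and were high in mutant 1, and without that library they stood at 0.63 and 0.10. DESeq2 called none of the 44, where 4 had an unadjusted p under 0.05. In edgeR 0 passed without mutant 1, 5 without mutant 2, 5 without WT 1 and 8 without WT 2. Without WT 2, 3 of the 8 rose and 5 fell, and in the other cases no gene fell.

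Other class I genes were few. Among 19 further class I genes of the H2 locus in the matrices, 3 could be tested, H2-Q10, H2-M3 and H2-T24, and the other 16 had 22 UMIs or fewer in each library. None of the 3 passed in edgeR or DESeq2, and 1 had an unadjusted p under 0.05 in edgeR and 0 in DESeq2. Of the class I-like genes outside H2, 3 were tested and none passed in either tool, with Cd1d1, which presents lipids, at 4.69 and 8.35 CPM in mutant libraries, against 11.6 and 9.65 CPM in WT libraries. It was the 1 of the 3 with an unadjusted p under 0.05 in edgeR, where DESeq2 gave 0. None of 5 class II genes and none of 3 receptors for class I passed in edgeR or DESeq2, with 2 and 0 at an unadjusted p under 0.05 in edgeR and 1 and 0 in DESeq2.

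Both sexes of donor cells were present in every library, which gave a comparison that had no part in choosing the genes. Cells with Xist and no Y-linked UMI were taken as female and cells with a Y-linked and no Xist UMI as male. Mutant 1 held 247 female and 525 male cells, mutant 2 held 66 and 84, WT 1 held 617 and 528, and WT 2 held 288 and 262. Cells with both kinds of UMI made up at most 1.19% of a library. Female and male cells were compared within libraries, with library as a block, and 125 of 9701 genes passed edgeR's test, or 1.29%. The count was 48 without mutant 1 and 66 without WT 1.

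H2-Q7 was lower in female than in male cells in 4 of 4 libraries. It had 377 and 286 CPM in female mutant cells, against 422 and 405 CPM in male mutant cells. In WT libraries it had 281 and 213 CPM in female cells, against 300.2 and 252 CPM in male cells. Female cells were the lower in each library, although the sexes overlap across libraries. The log2 fold change, female minus male, was -0.20 ± 0.05 (SE, edgeR adjusted p = 0.0456). The call was lost when any 1 library was left out: the value was then between -0.26 and -0.16, and the adjusted p was 0.228 without mutant 1, 0.114 without mutant 2, 0.0995 without WT 1 and 0.127 without WT 2. Pooled over the 4 libraries, cluster 2 held 10.51% of female and 20.23% of male cells, and cluster 3 held 18.23% of female and 10.58% of male cells. These pooled shares also carry the unlike mix of libraries in each sex. Cluster 2 held 53 of 247 female and 180 of 525 male cells in mutant 1, and 10 of 66 and 14 of 84 in mutant 2. In WT 1 it held 29 of 617 female and 52 of 528 male cells, and in WT 2 36 of 288 and 37 of 262. Over 12 pairs of a cluster and a library with at least 20 cells of each sex, female cells had the lower H2-Q7 CPM in 8. Mutant 2 had too few cells for any such pair, and the clusters of 1 library are not independent pairs.

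No other member passed between the sexes. H2-Q6 was lower in female cells in 3 of 4 libraries, by -0.28 ± 0.10 on the log2 scale (SE, edgeR adjusted p = 0.266). The difference was mostly in mutant 2, with 45.4 CPM in female and 114 CPM in male cells, and without that library it was -0.17. H2-Q2 was higher in female cells in 3 of 4 libraries, by 0.17 ± 0.11 (SE, edgeR adjusted p = 0.727). H2-K1 differed between the sexes by 0.00 ± 0.04, H2-D1 by 0.00 ± 0.04, B2m by 0.01 ± 0.04, H2-T22 by 0.06 ± 0.06, H2-Q4 by -0.03 ± 0.06 and H2-T23 by -0.07 ± 0.05 (log2, SE).

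The genotype difference of H2-Q2, H2-Q6 and H2-Q7 kept its sign in cells of each sex, which is again a description on the contrast that chose the list. H2-Q7 was at 0.45 ± 0.15 in female and 0.59 ± 0.15 in male cells, mutant over WT (log2, SE). H2-Q6 was at 0.29 ± 0.19 in female and 0.83 ± 0.20 in male cells. H2-Q2 was at -0.32 ± 0.20 in female and -0.94 ± 0.20 in male cells, with 40.5 and 26.6 CPM in female mutant, 43.8 and 48.6 CPM in female WT, 24.6 and 21.3 CPM in male mutant and 43.0 and 50.8 CPM in male WT cells. The interaction of genotype and sex was 0.64 ± 0.23 for H2-Q2 (SE), which did not pass over all 9701 genes (edgeR adjusted p = 0.83). Among all genes 2 passed this interaction test, neither of them a member. Male cells made up 60.4% and 47.7% of mutant and 41.7% and 42.2% of WT cells, and H2-Q7 was higher in male cells. Its genotype difference was 0.45 within female and 0.59 within male cells, beside 0.52 over all cells.

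**Figure D5:**
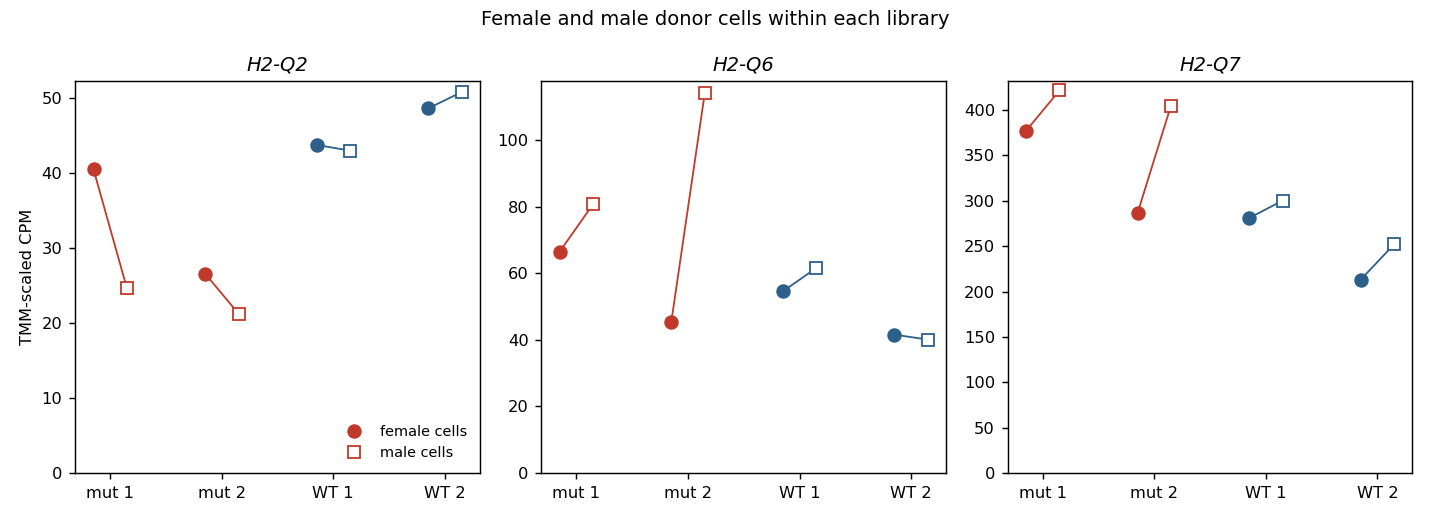
TMM-scaled CPM (vertical axes, from 0) of H2-Q2, H2-Q6 and H2-Q7 in female (filled circles) and male (open squares) donor cells of each mutant (red) and WT (blue) library, joined by a line within a library. H2-Q7 is lower in female cells in all 4 libraries, and H2-Q2 in mutant 1 stands at 40.5 CPM in female and 24.6 CPM in male cells.

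The antibody tags of the WT libraries, whose meaning the labels do not give, split each library into subsets. H2-Q7 had 408 and 355 TMM-scaled CPM in the mutant libraries. Among WT cells with tags 301, 302 and 303 and no clear tag it had 278, 323, 231 and 311 CPM in WT 1 and 281, 256, 238 and 207 CPM in WT 2. The subsets are cells of the same WT libraries, not further samples, and their CPM are without TMM scaling. Nothing is therefore read from their number or their place beside the mutant libraries. H2-Q2 ranged between 36.3 and 53.3 CPM in the subsets, and had 29.6 and 23.3 TMM-scaled CPM in the mutant libraries. The subset of WT 2 with tag 302 rested on 53 cells, 16 UMIs of H2-Q2 and 4 of H2-Q6.

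Other cell types were checked beside these values. B cell markers summed to 292 and 322 CPM in mutant libraries, against 168 and 230 CPM in WT libraries, and moved with H2-Q6 and H2-Q7. Nearly all of this was Ighm, at 276 and 310 CPM in mutant and 153 and 208 CPM in WT libraries. Of the 12 genes, 4 and 4 were at 0 in mutant and 2 and 1 in WT libraries, with Ms4a1, a B cell surface protein, at 0 in both mutant libraries. Cd79a, part of the B cell receptor, had 3 and 0 UMIs in mutant and 5 and 3 UMIs in WT libraries. Epithelial markers summed to 16.8 and 21.6 CPM in mutant and 11.4 and 16.5 CPM in WT libraries, and the interferon-signature markers to 278 and 177 CPM in mutant and 419 and 208 CPM in WT libraries. Marker sums of 4 T cell states were lower in both mutant libraries. Th1 markers had 69.4 and 69.9 CPM in mutant and 165 and 122 CPM in WT libraries. Th17 markers had 24.7 and 17.9 CPM in mutant and 68.6 and 51.8 CPM in WT libraries. Of the 7 Th17 genes, 2 and 6 were at 0 in mutant and 3 and 3 in WT libraries, so these sums rest on few genes. Of the 8 Th1 genes, 0 and 2 were at 0 in mutant and 0 and 1 in WT libraries. Cytotoxic markers had 86.9 and 104 CPM in mutant and 212 and 138 CPM in WT libraries, and naive or memory markers 935 and 1137 CPM in mutant and 1471 and 1307 CPM in WT libraries. The T follicular helper sum was 5231 and 4439 CPM in mutant and 3378 and 4348 CPM in WT libraries. The part of these cells in the class I differences over all kept cells was not tested. Some 3′ sequence is shared with other genes, counted in 90-base windows over the last 500 bases of the transcript. For H2-T22, 26.5% of windows also occur in H2-T10, which is not among the class I genes found in the matrices. The shares were 13.4% for H2-T23, 10.9% for H2-Q6 and 9.49% for H2-Q4. Most genes sharing these windows are not class I genes, for example Hook2 for H2-T23, Cd59b for H2-Q6 and Reep3 for H2-Q4. H2-Q6 also shares windows with H2-Q4. No windows of H2-K1, H2-D1, B2m, H2-Q2 and H2-Q7 occur in the transcripts of other genes that were searched. The class I genes H2-Q8 and H2-Q9 are not among the genes in the matrices. Whether any reads of them were counted as H2-Q6 or H2-Q7 was not tested. How the counting treated reads of shared windows is not given in the sources used here.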

How the data were processed

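Gene expression was measured by 10x 3′ single-cell RNA sequencing of 4 libraries. The authors deposited UMI counts for every gene in every cell. Per the submitters' processing notes, the genome was mm10 and the tools were Cell Ranger 6.0.0 and Seurat 4.

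Cells with at least 500 genes and at most 10% mitochondrial UMIs were kept (3108 of 4803 barcodes). Scrublet's 31 doublets and a cluster of 145 cells with B cell and epithelial markers were left out, which left 2932 T cells. Clusters came from scanpy 1.11.5 and leidenalg 0.10.2 (resolution 0.8, 30 principal components, 15 neighbours, seed 0, 1737 of 2000 variable genes). A cluster was named when at least 3 markers of a type were among its 50 leading genes at 2-fold or more. Cluster 10 met this for regulatory T cells but is called by number because of its leading genes. Counts were summed per library. After filterByExpr and TMM scaling, edgeR 4.0.16 fitted them and gave quasi-likelihood p-values (R 4.3.3, limma 3.58.1, prior count 2), adjusted by Benjamini-Hochberg at 0.05. DESeq2 1.42.0 was an alternative. Each SE of a log2 fold change is its absolute value divided by the square root of the quasi-likelihood F statistic. This SE is approximate and can come out too small where the fold change is very small. Summing limits precision by UMIs counted: H2-Q2 in mutant 2 rests on 39. Fixed alternatives were other size factors, no filter, all barcodes, a replicate block, leaving out each library, and fits within clusters and sexes. Leaving out shared barcodes was added after seeing the data.

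The 9 genes and all lists were chosen with earlier results of these data known. Named genes are all members, genes of the fixed lists and neighbourhoods past the threshold (at most 5 each, by p), and the 2 genes most like each member by Pearson r (mean of at least 50 CPM), of which the report names the nearest. Tap1, Nlrc5, H2-Q10 and Cd1d1 were named after their values were seen. Gene coordinates come from GENCODE, which matched 32235 of 32285 gene IDs.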

Additional observations from a re-analysis of the deposited data

How the results depend on the processing

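Depth limits the rarer genes most: H2-Q2 rests on 39 UMIs in mutant 2. The deviations of same-numbered libraries correlated at r = 0.0361 over 10624 genes. This single value over all genes cannot show whether some genes differ alike between same-numbered libraries, which was not tested. A fit with the replicate block called 374 genes in all, 5 in the H2 locus, 3 above it and 2 around Tgfbr1. In that fit 3 regulators and 5 interferon-stimulated genes (3 higher, 2 lower) also passed. Nothing is read from the counts of the block fit. Over 16 alternatives, which include the fits within 4 clusters and within each sex, H2-Q2 and H2-Q4 were negative in 16 and H2-Q6 and H2-Q7 positive in 16. The lowest and highest values were -0.98 and -0.32 for H2-Q2, -0.29 and -0.06 for H2-Q4, 0.29 and 1.06 for H2-Q6 and 0.38 and 0.94 for H2-Q7. H2-K1 was positive in 6 of 16, H2-D1 in 5, H2-T22 in 4, H2-T23 in 1 and B2m in 15. All 16 refit cells of the same 4 libraries on the contrast that chose the list. Nothing is therefore read from these counts of signs, and the share over all genes was not counted.

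The count of all genes called was 354 with no filter on low counts, 44 in DESeq2, and 0 with all barcodes in edgeR, where 612 genes had an unadjusted p under 0.05. With no filter, 8 interferon-stimulated genes (6 higher, 2 lower), 3 regulators, 1 class I-like gene, 3 genes in the H2 locus, 2 above it and 2 around Tgfbr1 passed. DESeq2 and all barcodes each called 0 interferon-stimulated genes and 0 in the H2 locus. DESeq2's size factors and the fit without shared barcodes each called 1 interferon-stimulated gene. The cause was not tested.

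With each library left out in turn, a lone library is assumed to vary like the other genotype. The lowest and highest counts were 38 and 210 of all genes, 0 and 8 interferon-stimulated genes, 0 and 1 regulators, 1 and 3 genes in the H2 locus, 0 and 2 above it and 0 and 2 around Tgfbr1. Within clusters they were 2 and 24 in cluster 0, 1 and 53 in cluster 1, 1 and 146 in cluster 2 and 7 and 30 in cluster 4, and between sexes 48 and 148. The female minus male value changed sign for members near 0: H2-K1 lay between -0.0061 and 0.017, H2-D1 between -0.019 and 0.028, B2m between -0.016 and 0.051 and H2-Q4 between -0.096 and 0.051.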
